A study of Mus musculus with 24 samples.

Results

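The genes described here are Trp53, which encodes the transcription factor p53, and 9 genes of its pathway and of the response to DNA damage, namely Mdm2, Cdkn1a, Ccng1, Bbc3, Pmaip1, Bax, Phlda3, Gadd45a and Zmat3. They were chosen by name, with earlier results of these data known. All 10 were found among the 24537 genes of each expression table, with the same transcript at 24 h and at 6 h, and all 10 passed the filter on low values. The libraries hold messenger RNA of macrophages derived from mouse bone marrow, grown for 7 days with 20 ng/mL M-CSF, the growth factor of macrophages, from the leg bones of female C57BL/6J animals aged 8 weeks. The cells then received LPS together with 4-OHE1 (LPS+4-OHE1), 4-OHE1 alone, LPS alone, or vehicle (control), for 24 h or for 6 h, which gave 8 groups of 3 libraries. LPS, lipopolysaccharide, is a bacterial cell wall component that macrophages sense, and 4-OHE1, 4-hydroxyestrone, is a catechol metabolite of the estrogen estrone. The doses are uncertain, since the labels state 100 ng/mL for LPS and 5 mM for 4-OHE1 both as the final concentration and as that of the stock before dilution. Whether the libraries within a group come from separate mice or dishes is not stated, and p-values cover only their spread, which may be technical.

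As background, p53 is a protein that is kept scarce by MDM2, a ubiquitin ligase that marks it for degradation, and Mdm2 is itself a p53 target, which closes a feedback loop. Damaged DNA stops this degradation through kinases such as ATM, and p53 then switches on genes that halt the cell cycle, repair DNA or start cell death. Because this control acts on the protein, the mRNA of Trp53 need not follow p53 activity, and protein was not measured here. Several of the targets, Gadd45a, Pmaip1, Bbc3 and Cdkn1a among them, are also known to be switched on by other stress factors without p53. Catechol estrogens can be oxidised to quinones that react with DNA, and macrophages stimulated with LPS are known to stop dividing.

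Library depth ranged from about 8127160 to 13339200 reads, and 83.0% to 87.2% of them fell in genes. FPKM divides a gene's reads by the length of its transcript and by the depth of the library. At 6 h, LPS+4-OHE1 replicate 3 stood apart on the first principal component (63.0% of the variance), at 4.27 against 19.4 and 18.3 for replicates 1 and 2. Results that rest on this library are given with and without it where it changes them. Macrophage markers summed to 5497 to 6977 FPKM per library at 6 h. At 24 h they summed to 6891 to 7512 FPKM with LPS+4-OHE1, 9244 to 9877 FPKM with 4-OHE1 and 14250 to 15960 FPKM with LPS, against 6496 to 7170 FPKM in control, most abundantly Lyz2. Dendritic cell markers, most abundantly Xcr1, summed to 1.77 to 3.44 FPKM with LPS+4-OHE1, 0.475 to 0.921 FPKM with 4-OHE1 and 0.865 to 1.06 FPKM with LPS at 6 h, against 0.0720 to 0.260 FPKM in control, and to at most 0.482 FPKM at 24 h. Stromal markers summed to 2.04 to 5.37 FPKM. Markers of B cells, T and NK cells, erythroid cells and mast cells summed to at most 2.03 FPKM. Neutrophil markers summed to 82.3 to 112 FPKM with LPS+4-OHE1 and 47.2 to 64.2 FPKM with LPS at 24 h, against 1.66 to 10.8 FPKM in the other 6 groups, nearly all of it S100a8. The part of these marker differences in the results was not tested. Fewer cells of a type and less RNA per cell cannot be told apart in such bulk samples.

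Genes were called higher or lower at an adjusted p under 0.05 from limma on log2(FPKM + 0.5), adjusted by Benjamini-Hochberg over all genes tested (11098 at 6 h and 11185 at 24 h). Differences are on this log2 scale, which understates the change of low genes, and are given ± SE. FPKM values were not scaled between libraries, and the median of all genes itself moved. It moved by -0.61 with LPS and -0.21 with 4-OHE1 at 6 h, and by -0.31 with LPS and 0.05 with 4-OHE1 at 24 h. Median-of-ratios scaling brings that median near 0, and the scaled value is given for a called difference whose call or direction it changes or whose size it moves by over 1.5 times.

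Trp53 (chromosome 11, 69580359 to 69591873, build mm10, plus strand) varied less over the groups than the other genes apart from Bax. At 6 h its level was 29.0, 27.6 and 25.2 FPKM with 4-OHE1 and 27.2, 25.6 and 27.6 FPKM with LPS, against 44.8, 39.0 and 44.7 FPKM in control. Neither treated group overlapped the control libraries. Trp53 fell by 0.64 ± 0.08 with 4-OHE1 at 6 h (adjusted p = 1.79e-05), and the scaled difference was -0.46. With LPS at 6 h the unscaled difference of -0.66 ± 0.08 (adjusted p = 5.93e-06) was 0.03 after scaling (adjusted p = 0.733), so a change of Trp53 with LPS at 6 h depends on the scaling. At 24 h the order differed. Trp53 stood at 58.9, 59.8 and 48.6 FPKM with 4-OHE1 and at 30.4, 28.9 and 29.8 FPKM with LPS, against 50.9, 43.2 and 44.2 FPKM in control. The LPS libraries all lay below control, and the fall of 0.62 ± 0.08 held after scaling (-0.26, adjusted p = 0.0119). The 4-OHE1 and control libraries overlapped. Their difference of 0.27 ± 0.08 passed the test (adjusted p = 0.017) but not after scaling (0.19, adjusted p = 0.0713), nor without control replicate 2, control replicate 3, 4-OHE1 replicate 1 or 4-OHE1 replicate 2 (0.22 to 0.24, adjusted p = 0.061 to 0.0735).

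The 10 genes did not all move the same way with 4-OHE1 at 6 h. Mdm2, Gadd45a, Pmaip1, Bbc3 and Cdkn1a rose, and Trp53, Ccng1, Phlda3 and Zmat3 fell. In this comparison 5 of the 10 genes were higher, where 20.9% of all genes tested were, and 4 were lower, where 44% of all genes were. The count lower is thus near the share of all genes. All 9 calls held after scaling, where 28.8% of all genes were higher and 31.7% lower, and all 9 held under every alternative run.

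Gadd45a, which encodes a small protein that binds cell cycle and repair factors after DNA damage (chromosome 6, 67035096 to 67037407, minus strand), moved most. It stood at 110, 123 and 120 FPKM with 4-OHE1 at 6 h, against 5.89, 7.87 and 8.04 FPKM in control. The 2 groups lie far apart, with a difference of 3.94 ± 0.14 (adjusted p = 3.08e-10). An annotated RNA on the opposite strand, E230016M11Rik, shares 337 of the 1764 annotated exon bases of Gadd45a (19.1%). It averaged 19.7 ± 0.678 FPKM with 4-OHE1 and 1.38 ± 0.406 FPKM in control (SD, n = 3), and since use of strand in the counting is not given in the sources used here, reads of the shared bases cannot be told apart. Cdkn1a shares 273 of 3553 annotated exon bases (7.68%) with an annotated RNA on the opposite strand, so its level carries the same limit. Bax shares 192 of 1576 (12.2%) with Gm45808, annotated as protein-coding on the same strand, where use of strand could not separate the reads. These bases are of all annotated exons, while the counted transcripts have 1218 bases for Gadd45a, 861 for Bax and 1908 for Cdkn1a.

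Mdm2 (chromosome 10, 117688875 to 117710758, minus strand) stood at 224, 259 and 250 FPKM with 4-OHE1 at 6 h, against 59.3, 63.8 and 61.7 FPKM in control, a rise of 1.98 ± 0.06 (adjusted p = 5.8e-11). Cdkn1a, encoding p21, an inhibitor of the kinases that drive the cell cycle (chromosome 17, 29093769 to 29100722, plus strand), stood at 278, 296 and 283 FPKM with 4-OHE1 and at 139, 129 and 149 FPKM in control, a rise of 1.04 ± 0.06 (adjusted p = 3.82e-08). Pmaip1 and Bbc3 encode NOXA and PUMA, proteins that trigger cell death by blocking survival members of the BCL2 family. Pmaip1 had 7.54, 8.22 and 8.36 FPKM with 4-OHE1, against 2.25, 2.98 and 3.10 FPKM in control, a rise of 1.39 ± 0.15 (adjusted p = 6.06e-06). Bbc3 (chromosome 7, 16309583 to 16318334, plus strand) had 8.30, 11.3 and 10.2 FPKM with 4-OHE1 and 3.79, 4.43 and 4.40 FPKM in control, a rise of 1.14 ± 0.12 (adjusted p = 5.85e-06). In none of these 4 genes did a treated library overlap a control library.

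The other 3 targets fell at the same time. Phlda3 encodes an inhibitor of AKT signalling (chromosome 1, 135766085 to 135769134, plus strand). It had 1.87, 2.36 and 1.66 FPKM with 4-OHE1 at 6 h, against 5.42, 4.54 and 5.31 FPKM in control, a fall of 1.19 ± 0.22 on the log2 scale (adjusted p = 0.00053). These levels rest on few reads, 76 over the 3 4-OHE1 libraries and 244 over the controls. Zmat3, which encodes an RNA-binding zinc finger protein (chromosome 3, 32334794 to 32365665, minus strand), had 3.13, 3.17 and 3.58 FPKM with 4-OHE1 and 6.73, 6.66 and 6.77 FPKM in control, and it fell by 0.93 ± 0.11 (adjusted p = 8.8e-06). Ccng1, encoding cyclin G1, a regulator of the MDM2 protein (chromosome 11, 40748552 to 40755286, minus strand), had 20.6, 23.2 and 26.8 FPKM with 4-OHE1 and 37.8, 39.1 and 34.8 FPKM in control, and it fell by 0.66 ± 0.10 (adjusted p = 7.91e-05). The groups of all 3 genes were apart. Bax, which encodes the protein that opens the outer mitochondrial membrane in cell death (chromosome 7, 45461695 to 45466898, minus strand), had overlapping groups, 136, 142 and 119 FPKM with 4-OHE1 and 128, 101 and 128 FPKM in control. Its difference of 0.15 was not called (95% interval -0.05 to 0.35), but 0.33 after scaling was (adjusted p = 0.0047).

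**Figure D1:**
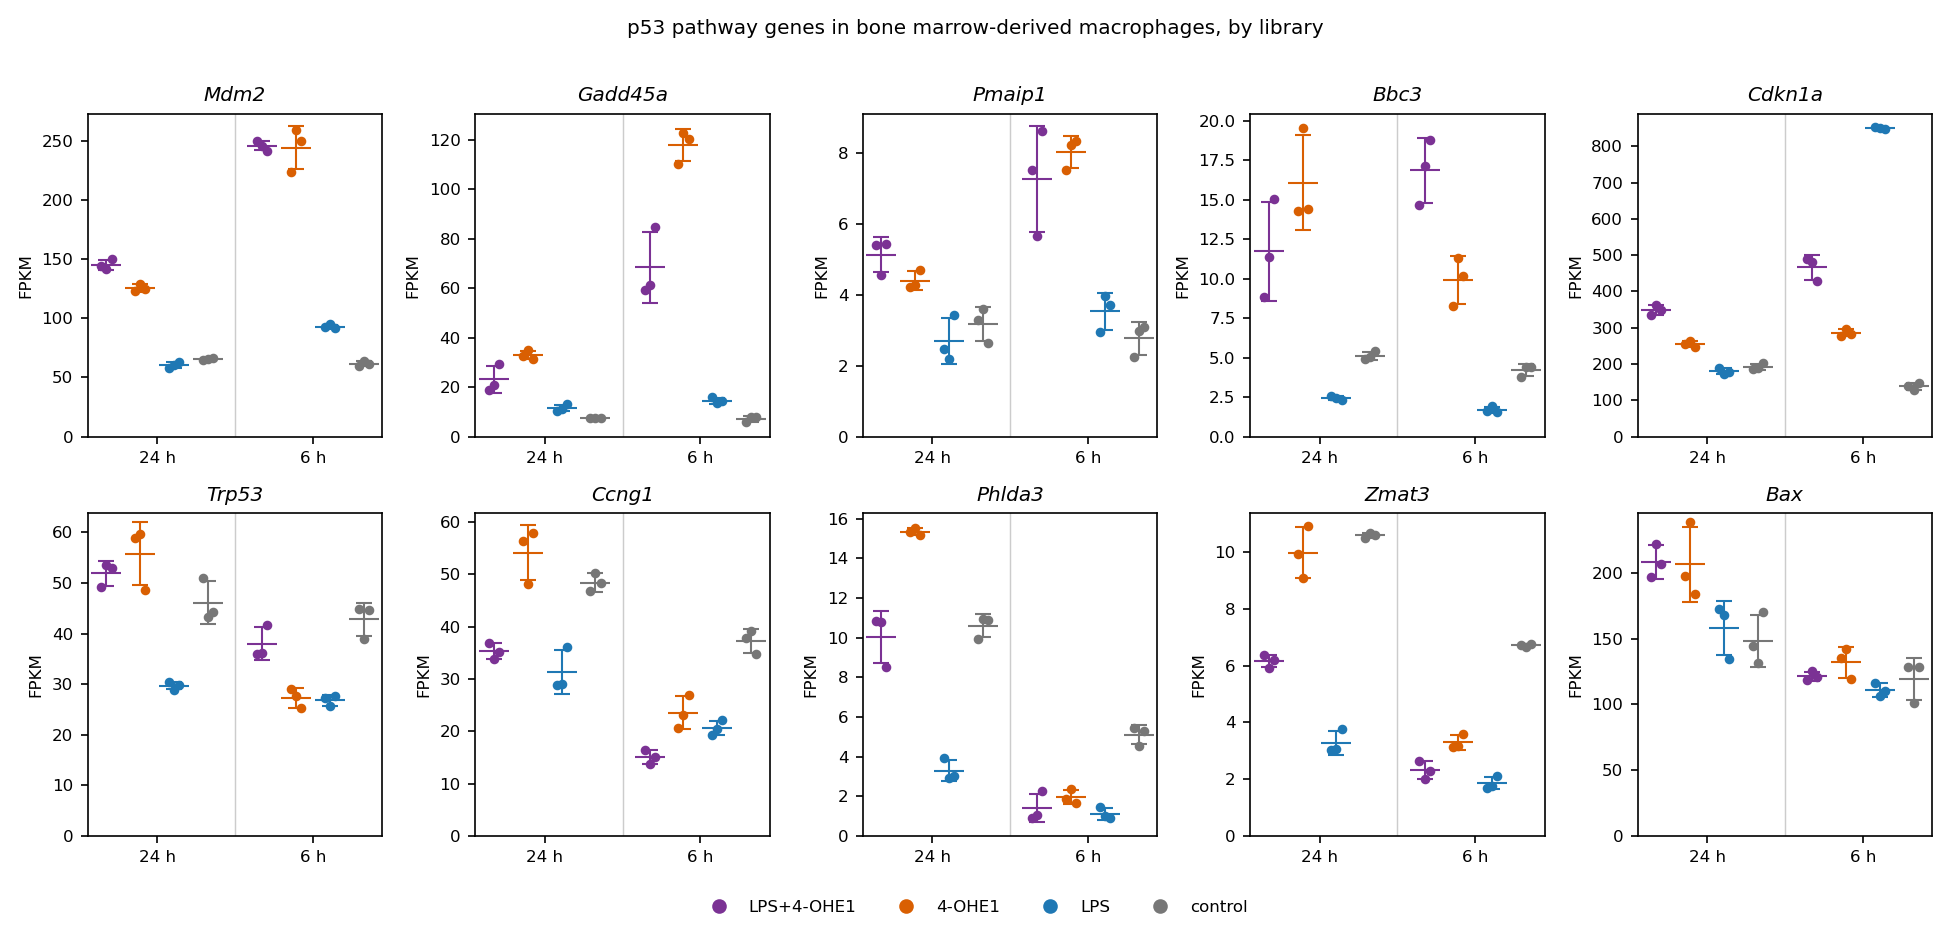
FPKM (vertical axes, linear, from 0) of the 10 genes in each library, by time and treatment, with points for libraries and bars for the mean ± SD of 3. Mdm2, Gadd45a, Pmaip1 and Bbc3 stand highest in the groups with 4-OHE1, while Ccng1, Phlda3 and Zmat3 are lower in all 3 treated groups than in control at 6 h.

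Promoter sequences are shown for a pair of genes that rose (Mdm2 and Gadd45a) and a pair that fell (Ccng1 and Trp53) with 4-OHE1 at 6 h, because all 4 carry the same motif. The sequences are RefSeq windows of GRCm38.p6, which is mm10, of 250 bases before to 50 after the transcript start, and 8 of the 10 genes had one that starts at the transcript of the tables. Capitals mark a p53 half-site, the decamer that p53 binds in pairs, searched on both strands.
Mdm2 (chr10:117710709-117711008, minus strand): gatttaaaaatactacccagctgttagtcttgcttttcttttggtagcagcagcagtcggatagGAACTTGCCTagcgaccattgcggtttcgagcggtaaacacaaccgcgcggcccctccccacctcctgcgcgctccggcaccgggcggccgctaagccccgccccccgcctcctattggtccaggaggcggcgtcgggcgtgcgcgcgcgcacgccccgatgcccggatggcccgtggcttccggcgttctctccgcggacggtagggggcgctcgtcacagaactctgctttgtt
Gadd45a (chr6:67037358-67037657, minus strand): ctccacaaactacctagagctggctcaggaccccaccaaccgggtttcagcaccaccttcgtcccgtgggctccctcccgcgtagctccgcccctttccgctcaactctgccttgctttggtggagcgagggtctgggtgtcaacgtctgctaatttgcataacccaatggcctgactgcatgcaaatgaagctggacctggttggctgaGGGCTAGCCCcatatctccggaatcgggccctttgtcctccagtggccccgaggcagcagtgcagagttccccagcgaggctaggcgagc
Ccng1 (chr11:40755237-40755536, minus strand): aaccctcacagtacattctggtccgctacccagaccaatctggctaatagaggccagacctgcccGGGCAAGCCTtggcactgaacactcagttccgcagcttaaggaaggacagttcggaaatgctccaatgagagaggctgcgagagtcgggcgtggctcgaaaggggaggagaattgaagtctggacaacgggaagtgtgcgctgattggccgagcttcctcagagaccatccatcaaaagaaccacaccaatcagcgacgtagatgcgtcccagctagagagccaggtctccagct
Trp53 (chr11:69580109-69580408, plus strand): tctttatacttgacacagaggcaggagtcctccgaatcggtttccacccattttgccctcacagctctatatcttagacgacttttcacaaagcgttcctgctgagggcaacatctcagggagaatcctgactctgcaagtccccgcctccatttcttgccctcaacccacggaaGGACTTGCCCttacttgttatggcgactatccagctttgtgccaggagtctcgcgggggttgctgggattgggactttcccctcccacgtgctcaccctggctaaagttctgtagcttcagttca
The half-site begins 186 bases before the start in Mdm2, 40 in Gadd45a, 185 in Ccng1 and 75 in Trp53. Bax also holds one, so that 5 of the 8 windows do, while those of Cdkn1a, Bbc3 and Phlda3 hold none. RefSeq has 2 windows for Cdkn1a, and the one that starts at another transcript (chr17:29090729-29091028) holds 2 half-sites. Of all 32851 RefSeq windows, 8.36% hold a half-site. A second motif, TGATGNAA, the element bound by ATF4 with its partners, was searched on both strands, is in none of the 8 windows and is in 3.97% of all windows. A match is a description of letters and not of binding, and well-known p53 sites of Mdm2, Gadd45a and Cdkn1a lie outside such windows, in introns or farther upstream.

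After 24 h of 4-OHE1 none of the 10 genes was called lower and 8 were called higher, where 29.9% of all genes tested were higher and 23.1% lower. With limma, 0 were lower at an unadjusted p under 0.05 as well, and 0 with voom on the recovered reads. After scaling 6 of the 8 calls remained (Mdm2, Gadd45a, Bbc3, Cdkn1a, Phlda3 and Bax), where 24.1% of all genes were higher and 28.4% lower. Gadd45a had 32.7, 34.9 and 31.4 FPKM with 4-OHE1, against 7.51, 7.63 and 7.42 FPKM in control, a rise of 2.06 ± 0.13 (adjusted p = 9.85e-08). Bbc3 had 14.3, 19.5 and 14.4 FPKM with 4-OHE1 and 4.91, 5.02 and 5.41 FPKM in control, a rise of 1.55 ± 0.16 (adjusted p = 6.82e-06). Mdm2 had 123, 129 and 124 FPKM with 4-OHE1 and 64.5, 65.3 and 66.1 FPKM in control, a rise of 0.94 ± 0.05 (adjusted p = 1.25e-08). All treated libraries of these genes lay above all controls.

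Phlda3, which was lower than control at 6 h, was higher at 24 h, with 15.3, 15.5 and 15.2 FPKM with 4-OHE1 and 9.94, 11.0 and 10.9 FPKM in control, a rise of 0.52 ± 0.11 (adjusted p = 0.00164). Cdkn1a rose by 0.40 ± 0.05 (adjusted p = 4.66e-05), to 255 FPKM on average with 4-OHE1 against 193 FPKM in control. Bax rose by 0.47 ± 0.12 (adjusted p = 0.00569), with 198, 238 and 184 FPKM with 4-OHE1 and 144, 131 and 170 FPKM in control, groups that did not overlap. Pmaip1 averaged 4.40 FPKM with 4-OHE1 and 3.18 FPKM in control. Its difference of 0.42 ± 0.14 (adjusted p = 0.0254) was not called after scaling (0.35, adjusted p = 0.0654), without a filter (adjusted p = 0.0507), in the authors' deposited table (adjusted p = 0.0693), or without control replicate 3 or 4-OHE1 replicate 3 (0.31 and 0.38). Ccng1 and Zmat3 were not called, with differences of 0.16 (95% interval -0.04 to 0.35) and -0.09 (-0.28 to 0.11), though Ccng1 was called without 4-OHE1 replicate 2 (0.24, adjusted p = 0.0476).

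By a test of the difference itself, the 4-OHE1 effect differed between 24 h and 6 h for 8 of the 10 genes. Of all genes tested 53.6% did. The signed effect was greater at 24 h for Phlda3 (1.70 ± 0.26), Trp53 (0.91 ± 0.12), Zmat3 (0.84 ± 0.13) and Ccng1 (0.81 ± 0.14), all called lower at 6 h. For Zmat3 it went from -0.93 at 6 h to -0.09 at 24 h, and for Ccng1 from -0.66 to 0.16, neither called at 24 h. The effect was smaller at 24 h for Gadd45a (-1.88 ± 0.20), Mdm2 (-1.04 ± 0.07), Pmaip1 (-0.97 ± 0.22) and Cdkn1a (-0.64 ± 0.08). All 8 held after scaling, and Bbc3 and Bax were not called (0.41, 95% interval -0.04 to 0.85, and 0.32, -0.01 to 0.66). Bax was called without control replicate 2 of 6 h, or without control replicate 3 or 4-OHE1 replicate 3 of 24 h (0.40 to 0.44). The genes called higher at 6 h thus stood nearer to control at 24 h, except Bbc3, and none of the genes called lower at 6 h was called lower at 24 h.

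LPS alone gave a different selection of the pathway. Cdkn1a was at its highest level of all 8 groups after 6 h of LPS, with 853, 850 and 848 FPKM, against 139, 129 and 149 FPKM in control. The rise was 2.61 ± 0.06 (adjusted p = 3.33e-12), and 3.31 after scaling. Gadd45a had 15.9, 13.5 and 14.2 FPKM with LPS and 5.89, 7.87 and 8.04 FPKM in control, a rise of 0.96 ± 0.14 (adjusted p = 3.11e-05), or 1.63 after scaling. Mdm2 had 92.2, 94.8 and 91.7 FPKM with LPS, against 59.3, 63.8 and 61.7 FPKM in control, a rise of 0.59 ± 0.06 (adjusted p = 7.59e-07), or 1.29 after scaling. These 3 genes were the ones called higher, where 16.1% of all genes were, and 5 were called lower, where 68.1% of all genes were. With scaling the background was 37% higher and 34.6% lower. Then 5 of the 10 were higher, Pmaip1 (0.91) and Bax (0.60) being added, and 3 lower, the latter near the share of all genes. Unscaled, Pmaip1 (0.30) was called higher only without LPS replicate 1 (0.41), and Bax (-0.10) lower only without control replicate 2 (-0.21).

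Phlda3 had 1.45, 0.985 and 0.900 FPKM with LPS at 6 h, against 5.42, 4.54 and 5.31 FPKM in control, and it fell by 1.81 ± 0.22 (adjusted p = 8.27e-06). Zmat3 had 1.70, 1.77 and 2.11 FPKM with LPS and 6.73, 6.66 and 6.77 FPKM in control, and it fell by 1.62 ± 0.11 (adjusted p = 2.04e-08). Bbc3 had 1.63, 1.93 and 1.58 FPKM with LPS and 3.79, 4.43 and 4.40 FPKM in control, and it fell by 1.09 ± 0.12 (adjusted p = 3.7e-06). These 3 falls held after scaling (-1.25, -1.01 and -0.50). Bbc3 therefore fell with LPS and rose with 4-OHE1 at the same time point. For Ccng1 the unscaled difference of -0.84 ± 0.10 (adjusted p = 4.54e-06) was -0.15 after scaling (adjusted p = 0.235), so its change depends on the scaling.

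At 24 h LPS left Gadd45a higher (0.59 ± 0.13, adjusted p = 0.00141, or 0.93 after scaling), with 10.6, 11.1 and 13.1 FPKM, against 7.51, 7.63 and 7.42 FPKM in control. That was 1 gene called higher, where 19.9% of all genes were, and 5 were called lower, where 53.5% of all genes were. All 6 calls held after scaling, where 35.5% of all genes were higher and 33.3% lower, and Mdm2, Cdkn1a and Bax were then also higher. Phlda3 (3.92, 2.93 and 3.03 FPKM with LPS, against 9.94, 11.0 and 10.9 FPKM in control) fell by 1.56 ± 0.11 (adjusted p = 4.13e-08). Zmat3 (3.02, 3.05 and 3.75 FPKM with LPS, against 10.5, 10.7 and 10.6 FPKM in control) fell by 1.56 ± 0.09 (adjusted p = 5.44e-09). Bbc3 fell by 0.94 ± 0.16 (adjusted p = 0.000188) and Ccng1 by 0.63 ± 0.09 (adjusted p = 4.23e-05), and their scaled differences were -0.62 and -0.27.

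The Cdkn1a libraries of LPS and control overlapped at 24 h, with 189, 173 and 178 FPKM with LPS and 188, 188 and 203 FPKM in control. Its difference was -0.10 (95% interval -0.21 to 0.02) and turned to 0.27 after scaling (adjusted p = 0.00081). Mdm2 stood likewise at -0.10 (adjusted p = 0.0605) and 0.26 after scaling (adjusted p = 0.000157), so the direction of both depends on the scaling. Without LPS replicate 3, Mdm2 (-0.13) and Pmaip1 (-0.37, against -0.21 with all libraries) were called lower. The LPS effect at 24 h minus that at 6 h was -2.71 ± 0.08 for Cdkn1a (adjusted p = 1.13e-15), -0.69 ± 0.07 for Mdm2 and -0.52 ± 0.22 for Pmaip1 (-0.81 after scaling). These were 3 calls lower and 0 higher among the 10 genes, where 16.9% of all genes were lower and 41.7% higher. After scaling 28.2% and 23.9% of all genes were, and 5 of the 10 genes were called lower. With limma, 0 genes were higher at an unadjusted p under 0.05 too, and 0 with voom. The Pmaip1 call (adjusted p = 0.047) was lost with a pseudocount of 1, without a filter, and without 1 of control replicate 1, LPS replicate 2 or LPS replicate 3 of 6 h or control replicate 1, control replicate 2, LPS replicate 1 or LPS replicate 2 of 24 h (adjusted p = 0.0839 to 0.137).

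**Figure D2:**
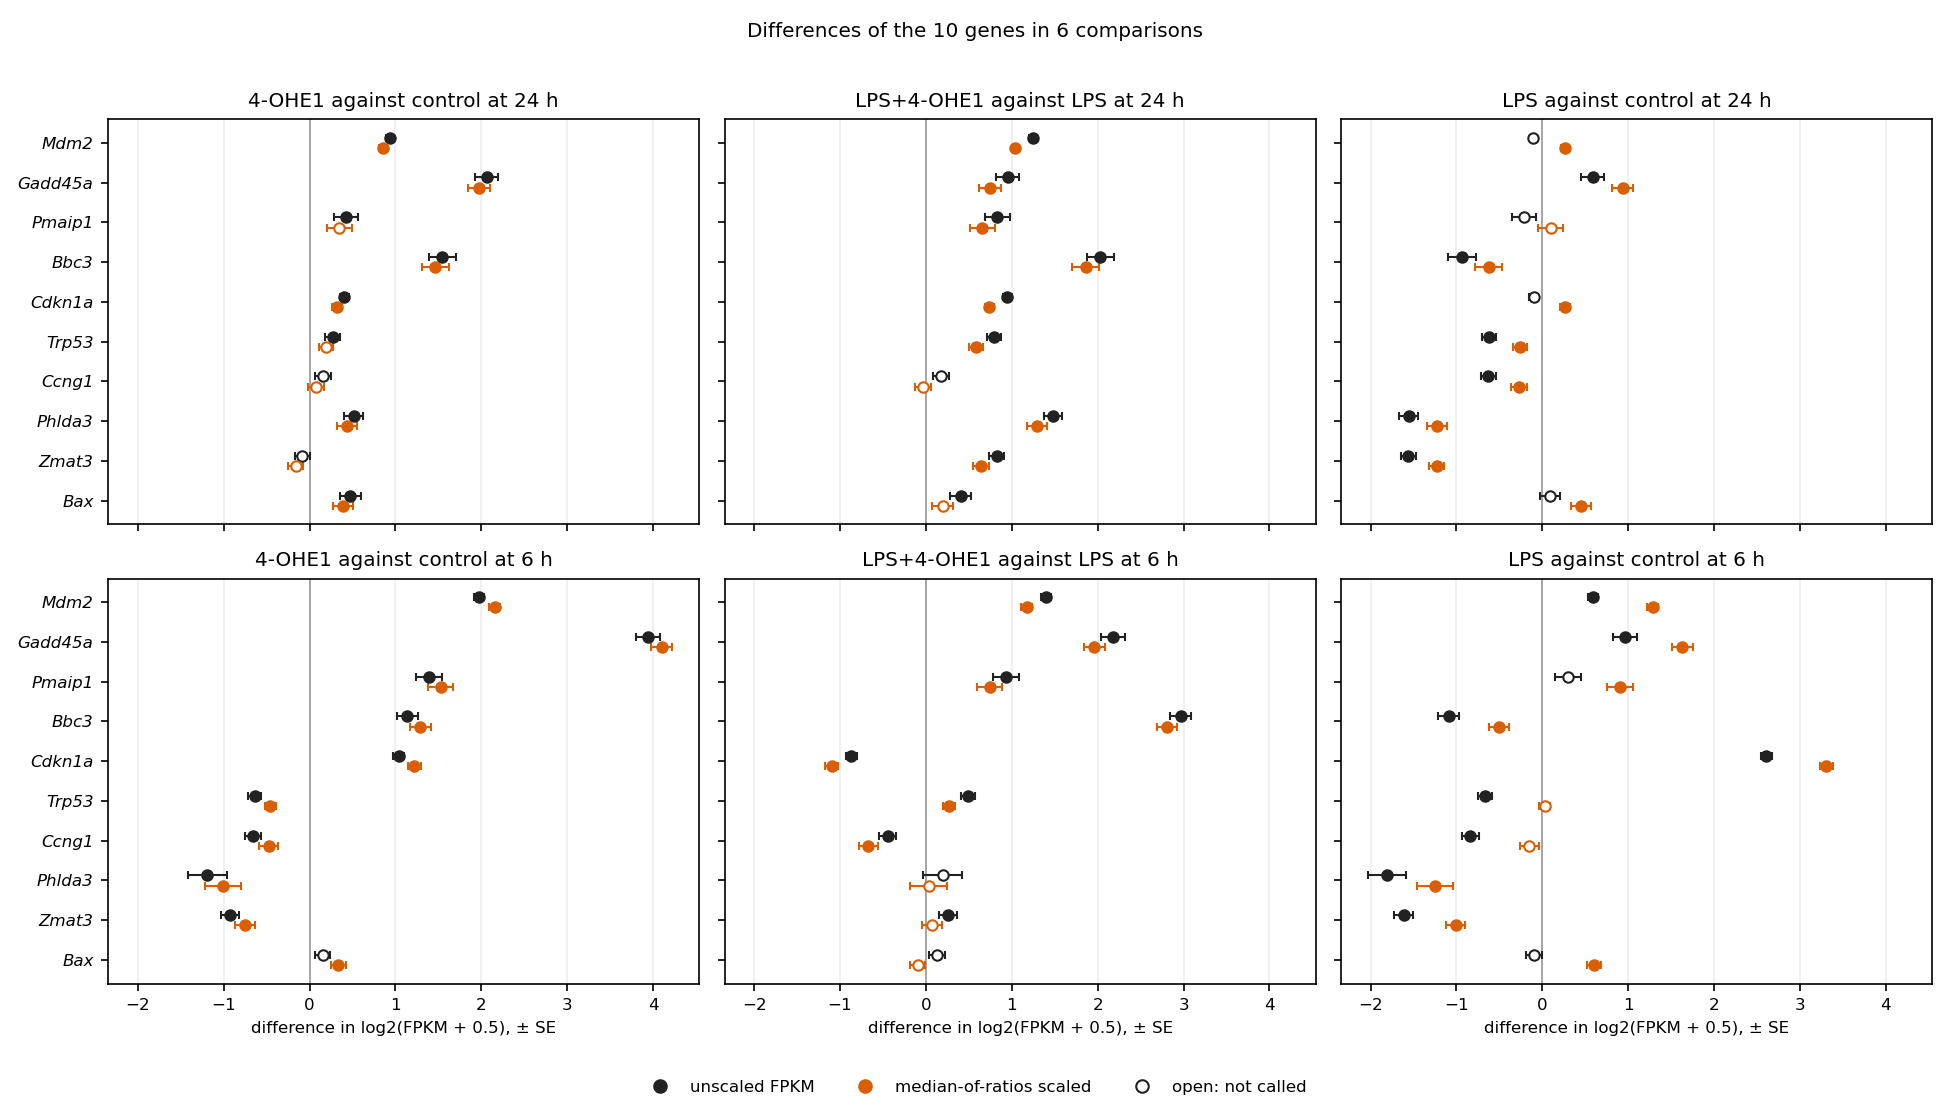
Differences in log2(FPKM + 0.5) ± SE (horizontal axes) of the 10 genes in 6 comparisons, 24 h above and 6 h below, for unscaled FPKM (black) and scaled values (orange), with open circles for differences not called. In the unscaled fit, 5 genes are called to the right of 0 and 4 to the left with 4-OHE1 at 6 h. At 24 h 8 are called to the right and 0 to the left.

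With 4-OHE1 added to LPS, Mdm2, Gadd45a, Bbc3, Pmaip1 and Trp53 were higher than with LPS alone at both times, with and without scaling. At 6 h 6 genes were higher with LPS+4-OHE1 than with LPS, where 42.7% of all genes were, and 2 were lower, where 25.3% were. After scaling 31.9% of all genes were higher and 35.2% lower, and 5 and 2 of the 10 genes were. Bbc3 moved most, with 14.7, 17.1 and 18.8 FPKM with LPS+4-OHE1 and 1.63, 1.93 and 1.58 FPKM with LPS, a rise of 2.97 ± 0.12 (adjusted p = 5.06e-10). Gadd45a had 59.3, 61.1 and 84.9 FPKM with LPS+4-OHE1, against 15.9, 13.5 and 14.2 FPKM with LPS, a rise of 2.18 ± 0.14 (adjusted p = 2.61e-08), or 2.01 without LPS+4-OHE1 replicate 3. Mdm2 had 249, 246 and 242 FPKM with LPS+4-OHE1 and 92.2, 94.8 and 91.7 FPKM with LPS, a rise of 1.40 ± 0.06 (adjusted p = 3.93e-10). No library of one group reached the other for these genes.

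Cdkn1a and Ccng1 were the 2 genes called lower. Cdkn1a stood at 489, 482 and 427 FPKM with LPS+4-OHE1 and 853, 850 and 848 FPKM with LPS, a fall of 0.87 ± 0.06 (adjusted p = 9.49e-08). Ccng1 fell by 0.45 ± 0.10 (adjusted p = 0.00142; -0.67 after scaling), while Pmaip1 rose by 0.94 ± 0.15 (adjusted p = 0.000144) and Trp53 by 0.49 ± 0.08 (adjusted p = 0.000138; 0.27 after scaling). Phlda3 had 0.906, 1.07 and 2.24 FPKM with LPS+4-OHE1 and 1.45, 0.985 and 0.900 FPKM with LPS, and replicate 3 alone lay above the LPS libraries. Its difference was 0.19 (95% interval -0.30 to 0.68) with that library and -0.10 without it. The Zmat3 call (0.26 ± 0.11, adjusted p = 0.0495) was not kept after scaling (0.07, adjusted p = 0.587), with a pseudocount of 1, without a filter, or without LPS replicate 1 or 2 or LPS+4-OHE1 replicate 1 or 3 (0.17 to 0.26).

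At 24 h 9 of the 10 genes were higher with LPS+4-OHE1 than with LPS and 0 were lower, where 39.5% of all genes were higher and 14.9% lower. With limma, 0 were lower at an unadjusted p under 0.05 too, and 0 with voom. After scaling 8 of the 10 were higher, where 23.1% of all genes were higher and 26.4% lower. Bbc3 had 8.82, 11.4 and 15.0 FPKM with LPS+4-OHE1, against 2.55, 2.43 and 2.31 FPKM with LPS, a rise of 2.03 ± 0.16 (adjusted p = 4.54e-07). Phlda3 had 10.8, 10.8 and 8.53 FPKM with LPS+4-OHE1 and 3.92, 2.93 and 3.03 FPKM with LPS, a rise of 1.48 ± 0.11 (adjusted p = 2.22e-07). Mdm2 had 145, 141 and 150 FPKM with LPS+4-OHE1 and 58.3, 60.8 and 63.2 FPKM with LPS, a rise of 1.25 ± 0.05 (adjusted p = 6.49e-10). The LPS+4-OHE1 libraries of these genes all lay above the LPS libraries. Cdkn1a rose by 0.95 ± 0.05, Gadd45a by 0.95 ± 0.13, Pmaip1 by 0.83 ± 0.14, Zmat3 by 0.82 ± 0.09 and Trp53 by 0.79 ± 0.08. Bax (0.40 ± 0.12, adjusted p = 0.0138) was not called after scaling (0.19) or without LPS replicate 3 (0.29, adjusted p = 0.0578) or LPS+4-OHE1 replicate 2 (0.36, adjusted p = 0.0521). Ccng1 was not called (0.17, 95% interval -0.02 to 0.37), though it was without LPS replicate 3 (0.28, adjusted p = 0.00971).

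Between 24 h and 6 h the difference between LPS+4-OHE1 and LPS itself changed for 7 genes, 5 upward, where 25.5% of all genes were, and 2 downward, where 25.7% were. For Cdkn1a it was 1.82 ± 0.08 greater at 24 h (adjusted p = 4.74e-13), the sign having turned. It was greater at 24 h for Phlda3 (1.28 ± 0.26), Ccng1 (0.62 ± 0.14) and Zmat3 (0.57 ± 0.13), and smaller for Gadd45a (-1.23 ± 0.20) and Bbc3 (-0.93 ± 0.21). For Trp53 (0.30 ± 0.12, adjusted p = 0.0385) the call was lost without a filter (adjusted p = 0.0572), without 1 of LPS replicate 1, LPS replicate 3, LPS+4-OHE1 replicate 1 or LPS+4-OHE1 replicate 2 of 6 h, and without LPS or LPS+4-OHE1 replicate 2 or 3 of 24 h (adjusted p = 0.055 to 0.0876).

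Set against 4-OHE1 alone, the combination at 6 h had more Cdkn1a, Bbc3 and Trp53 and less Gadd45a, Ccng1 and Zmat3. That was 3 genes higher, where 10.1% of all genes were, and 3 lower, where 50.2% were. After scaling 20.8% of all genes were higher and 18.2% lower, and 4 and 2 of the 10 genes were. Trp53 rose by 0.47 (0.75 after scaling) and Ccng1 fell by 0.63 on the log2 scale (-0.34 after scaling). Bbc3 had 14.7, 17.1 and 18.8 FPKM with LPS+4-OHE1 and 8.30, 11.3 and 10.2 FPKM with 4-OHE1, a rise of 0.74 ± 0.12 (adjusted p = 0.000366). Gadd45a had 59.3, 61.1 and 84.9 FPKM with LPS+4-OHE1 and 110, 123 and 120 FPKM with 4-OHE1, a fall of 0.80 ± 0.14 (adjusted p = 0.000464), with -0.51 after scaling and -0.96 without LPS+4-OHE1 replicate 3. Mdm2 libraries overlapped, with 249, 246 and 242 FPKM with LPS+4-OHE1 against 224, 259 and 250 FPKM with 4-OHE1. Its difference was 0.01 (95% interval -0.11 to 0.14) and 0.30 after scaling (adjusted p = 0.00335). Zmat3 (-0.43 ± 0.11) was not called after scaling (-0.18), and Phlda3 (-0.42 ± 0.22, adjusted p = 0.121) was called only without LPS+4-OHE1 replicate 3 (-0.72, adjusted p = 0.00365).

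At 24 h the combination had more Cdkn1a (0.45 ± 0.05, or 0.68 after scaling) and Mdm2 (0.21 ± 0.05, or 0.45) than 4-OHE1 alone, where 12% of all genes were higher, and 5 genes were lower, where 44.3% of all genes were. After scaling 23.2% of all genes were higher and 21.5% lower, and 3 genes were lower and 3 higher. Zmat3 (-0.65 ± 0.09), Ccng1 (-0.61 ± 0.09) and Phlda3 (-0.59 ± 0.11) were lower in both fits, with -0.43, -0.37 and -0.37 after scaling. Gadd45a (-0.52 ± 0.13) and Bbc3 (-0.45 ± 0.16) were not called after scaling (-0.29 and -0.23). The Bbc3 call (adjusted p = 0.0302) was also lost without a filter (adjusted p = 0.0602), without 4-OHE1 replicate 2, and without LPS+4-OHE1 replicate 1 or 2 (-0.45 to -0.27). Trp53 (-0.10) was called lower without 4-OHE1 replicate 3 (-0.19).

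The interaction asks whether 4-OHE1 changed a gene differently in the presence of LPS than without it. At 6 h it was negative for Cdkn1a (-1.91 ± 0.09, adjusted p = 7.48e-09), Gadd45a (-1.76 ± 0.20) and Mdm2 (-0.58 ± 0.08), each of which both agents alone had raised. It was positive for Bbc3 (1.83 ± 0.18, adjusted p = 2.66e-06), Phlda3 (1.38 ± 0.32), Zmat3 (1.19 ± 0.15) and Trp53 (1.13 ± 0.11). These were 3 negative and 4 positive calls, where 15.2% and 45.5% of all genes were, and the median gene stood at 0.33. After scaling 28.7% and 25% of all genes were, and 5 negative and 4 positive calls were made, with -0.99 for Mdm2 and 0.73 for Trp53. Pmaip1 (-0.45) was called without LPS replicate 1 (-0.56) or LPS+4-OHE1 replicate 3 (-0.58). At 24 h it was negative for Gadd45a (-1.11 ± 0.19), where 15.7% of all genes were, and positive for Phlda3 (0.96 ± 0.15), Zmat3 (0.91 ± 0.12), Cdkn1a (0.55 ± 0.07), Trp53 (0.53 ± 0.12) and Mdm2 (0.31 ± 0.06), where 27.6% were. All 6 of these held after scaling (Mdm2 at 0.19), with 21.6% negative and 21.5% positive among all genes. Pmaip1 (0.41) was called without LPS replicate 3 (0.57), and Bbc3 (0.48) without 4-OHE1 replicate 2 (0.63) or LPS+4-OHE1 replicate 1 (0.66).

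Over the 8 group means the 10 genes followed different courses. Mdm2, Pmaip1 and Gadd45a ran closely together, with Pearson correlations of 0.95 to 0.99, and Ccng1, Phlda3 and Zmat3 ran together at 0.93 to 0.95. Between these sets of 3 the correlations were -0.55 to -0.29. Trp53 was nearer to the second set, at 0.68 to 0.87, and stood at -0.21 to -0.08 with the first. Cdkn1a stood at 0.38 to 0.48 with the first set and at -0.66 to -0.55 with the second. These are descriptions over 8 points of unscaled values, from tables made separately for each time. All genes are measured in the same libraries, so a shift of all genes between groups enters these correlations.

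**Figure D3:**
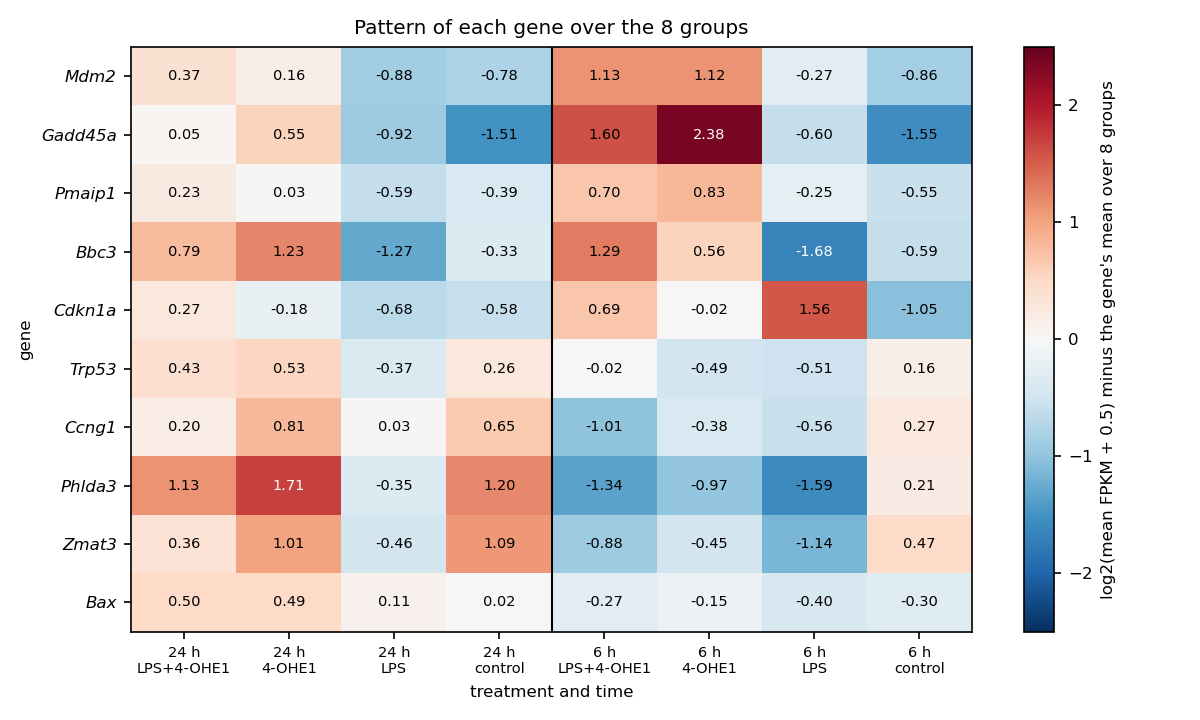
Log2(mean FPKM + 0.5) of each gene minus its own mean over the 8 groups (colour and printed value), with treatments and times in columns and genes in rows. Gadd45a reaches 2.38 with 4-OHE1 at 6 h, Cdkn1a 1.56 with LPS at 6 h and Phlda3 1.71 with 4-OHE1 at 24 h.

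The order of the levels shows the same. Gadd45a was highest with 4-OHE1 at 6 h (118 FPKM), then with LPS+4-OHE1 at 6 h (68.4 FPKM), and the neighbours down to control did not overlap until the controls of 24 h and 6 h (7.52 and 7.27 FPKM). Mdm2 shared its highest levels between LPS+4-OHE1 and 4-OHE1 at 6 h (246 and 244 FPKM), which overlapped. Cdkn1a was highest with LPS at 6 h (850 FPKM) and lowest in control at 6 h (139 FPKM), and the only neighbours in its order to overlap were control and LPS at 24 h (193 and 180 FPKM). Phlda3 was highest with 4-OHE1 at 24 h (15.3 FPKM) and Zmat3 in control at 24 h (10.6 FPKM), while both were lowest with LPS at 6 h (1.11 and 1.86 FPKM). Both also stood higher in control at 24 h (10.6 and 10.6 FPKM) than in control at 6 h (5.09 and 6.72 FPKM), a level set across the separate tables and not tested. Bax had the flattest course, 208 FPKM with LPS+4-OHE1 at 24 h and 111 FPKM with LPS at 6 h at its ends, and most neighbours overlapped.

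Among 8371 genes, those most like each member over the 8 groups were Cdk7 for Mdm2 (0.99), Lmbrd1 for Gadd45a (0.99), Dusp8 for Pmaip1 (0.99), Ccdc9 for Bbc3 (0.97), Aff1 for Cdkn1a (0.98), Aen for Trp53 (0.97), Ormdl2 for Ccng1 (0.99), Eif2d for Phlda3 (0.99), Tbp for Zmat3 (0.98) and Josd2 for Bax (0.98). Cdk7 and Osgin2 were among the 3 most like both Mdm2 and Pmaip1. These correlations too are of unscaled values.

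Other known p53 targets included genes of large rise, but the counts of the list lay near those of all genes with 4-OHE1 at 6 h. There 9 of 33 tested were higher, where 20.9% of all genes were, and 15 lower (10 after scaling too), where 44% were (31.7% after scaling too), with a median of -0.23 where that of all genes was -0.21. Plk2, a kinase induced by stress, averaged 467 ± 22.6 FPKM with 4-OHE1 and 27.1 ± 1.17 FPKM in control (SD, n = 3) and rose by 4.08. Gdf15, a secreted stress cytokine, averaged 233 ± 22.2 FPKM with 4-OHE1 and 15.1 ± 1.51 FPKM in control and rose by 3.91. Sesn2, an inhibitor of mTORC1 signalling, averaged 64.0 ± 4.93 FPKM with 4-OHE1 and 6.18 ± 0.722 FPKM in control and rose by 3.27. With 4-OHE1 at 24 h 15 of 33 were higher (11 after scaling too), where 29.9% of all genes were (24.1% after scaling too), and 7 lower, where 23.1% were, with Btg2 (1.83), Sesn2 (1.47) and Ephx1 (1.31) among those higher.

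With LPS at 6 h 22 of 33 other targets were lower (18 after scaling too), where 68.1% of all genes were (34.6% after scaling too), and 4 higher, where 16.1% were, with a median of -1.03 where that of all genes was -0.61. The count higher depends on the scaling. After scaling 11 were higher, where 37% of all genes were, and with voom 11. Fas, a death receptor, averaged 32.1 ± 0.174 FPKM with LPS and 1.28 ± 0.257 FPKM in control and rose by 4.20, while Sesn1 (-3.44) and Siva1 (-2.85) fell. At 24 h 24 were lower (20 after scaling too), where 53.5% of all genes were (33.3% after scaling too), and 5 higher, where 19.9% were, with Fas (3.53) and Ddb2 (1.59) among those higher. After scaling 9 were higher, where 35.5% of all genes were, and with voom 9. Ddb2, a damage sensor of nucleotide excision repair, averaged 37.2 ± 2.35 FPKM with LPS against 11.3 to 12.7 FPKM in the control libraries. It averaged 9.76 ± 1.10 FPKM with LPS+4-OHE1, lower than with LPS by 1.88 on the log2 scale. Fas likewise was lower with LPS+4-OHE1 (4.91 ± 0.800 FPKM) than with LPS at 6 h. Of the 33, 16 were higher and 5 lower with LPS+4-OHE1 than with LPS at 6 h, where 42.7% and 25.3% of all genes were, led by Sesn2 (5.17) and Gdf15 (2.53). At 24 h 22 and 4 were (15 and 4 after scaling too), where 39.5% and 14.9% of all genes were, led by Gdf15 (3.40) and Plk2 (2.47).

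Relatives of the 10 genes by sequence included some of the largest differences. With 4-OHE1 at 6 h Gadd45g averaged 210 ± 20.9 FPKM against 11.7 ± 1.87 FPKM in control (4.12), and Gadd45b rose by 3.61, so all 3 Gadd45 genes rose. With LPS at 6 h Gadd45b rose by 4.08 and Gadd45g fell by 1.26, both unscaled. Of the 2 relatives called lower there, 1 was lower after scaling too. Cdkn1c, the relative of Cdkn1a that encodes the inhibitor p57, rose by 2.58 with 4-OHE1 at 6 h and by 3.34 at 24 h. It averaged 118 ± 23.0 FPKM with LPS+4-OHE1 and 0.983 ± 0.390 FPKM with LPS at 24 h (6.34). Of the 8 relatives tested, 5 were higher and 2 lower with 4-OHE1 at 6 h, where 20.9% and 44% of all genes were. At 24 h 5 were higher and 1 lower, where 29.9% and 23.1% of all genes were, while voom called 5 higher and 3 lower.

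Genes that sense and signal DNA damage were mostly lower with either agent alone. Of 19 tested, 15 were lower and 0 higher with 4-OHE1 at 6 h (13 lower after scaling too, median -0.87), where 44% of all genes were lower. At 24 h 15 and 0 were again (15 lower after scaling too, median -0.55), where 23.1% of all genes were lower. With limma on unscaled values, 0 were higher at an unadjusted p under 0.05 at either time, while 1 was called higher at 6 h and 0 at 24 h after scaling and with voom. Brca1 averaged 3.99 ± 0.544 FPKM with 4-OHE1 and 9.48 ± 0.324 FPKM in control at 6 h (-1.16), and 2.06 ± 0.0250 FPKM against 9.15 ± 0.442 FPKM at 24 h (-1.91). Atm, the kinase that senses double strand breaks, averaged 1.66 ± 0.223 FPKM with 4-OHE1 and 6.31 ± 0.321 FPKM in control at 6 h (-1.66). With LPS at 6 h 19 of 19 were lower (12 after scaling too, median -1.64), Brca1 (-3.50), Chek2 (-3.07) and H2afx (-2.87) among them, where 68.1% of all genes were lower. With LPS at 24 h 15 of 19 were lower (14 after scaling too), where 53.5% of all genes were. At each time 1 of the 19 was called higher with LPS after scaling and with voom, where limma on unscaled values called 0, also at an unadjusted p under 0.05. Between LPS+4-OHE1 and LPS at 6 h, 8 were higher and 3 lower (6 and 3 after scaling too). Of all genes 42.7% were higher and 25.3% lower there (31.9% and 25.3% after scaling too). At 24 h 10 were higher and 2 lower (4 and 2 after scaling too). Of all genes 39.5% and 14.9% were (23.1% and 14.9% after scaling too). With voom 6 of the 19 were higher and 6 lower at 6 h, and 4 and 3 at 24 h.

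Repair genes are given by pathway, and differences between the pathways were not tested. With 4-OHE1, 44% of all genes were lower and 20.9% higher at 6 h, and 23.1% and 29.9% at 24 h. Of 18 genes of double strand break repair, 13 were lower and 1 higher with 4-OHE1 at 6 h (12 and 1 after scaling too), Fancd2 (-1.31) among those lower, and 12 and 2 at 24 h (12 and 0 after scaling too). Base excision repair had 15 of 19 lower and 1 higher at 6 h (12 and 1 after scaling too), with Fen1 (-1.54) and Ung (-1.45) among those lower, and 6 lower and 6 higher at 24 h (6 and 6). Nucleotide excision repair had 6 of 15 lower and 4 higher at 6 h (4 and 4 after scaling too), Ercc6 (1.04) and Gtf2h1 (0.86) among those higher, and 2 lower and 8 higher at 24 h (2 and 6). With LPS at 6 h the counts lower were 15 of 18, 16 of 19 and 14 of 15 (14, 13 and 5 after scaling too), where 68.1% of all genes were lower (34.6% after scaling too). For nucleotide excision repair with LPS at 6 h the direction depends on the scaling, with 0 higher unscaled (0 also at an unadjusted p under 0.05) and 6 higher after scaling or with voom.

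Among 10 regulators of p53, 3 were higher and 2 lower with 4-OHE1 at 6 h (3 and 1 after scaling too). Of all genes 20.9% were higher and 44% lower there (20.9% and 31.7% after scaling too). Sirt1, a deacetylase of p53, averaged 38.6 ± 5.25 FPKM with 4-OHE1 and 7.67 ± 0.744 FPKM in control (2.26). Of 12 other BCL2 family genes, 1 was higher and 8 lower with 4-OHE1 at 6 h (1 and 5 after scaling too), against the same shares. At 24 h 5 were higher and 3 lower (5 and 3 after scaling too), where 29.9% and 23.1% of all genes were. Bcl2l11, encoding the death trigger BIM, rose by 0.94 with 4-OHE1 at 24 h. The survival gene Bcl2l1 fell by 0.83 with 4-OHE1 at 6 h. Bcl2a1b rose by 4.52 with LPS and was lower by 3.38 with LPS+4-OHE1 than with LPS at 6 h, but its copies Bcl2a1a and Bcl2a1d are near-identical, so reads could be split among them.

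**Figure D4:**
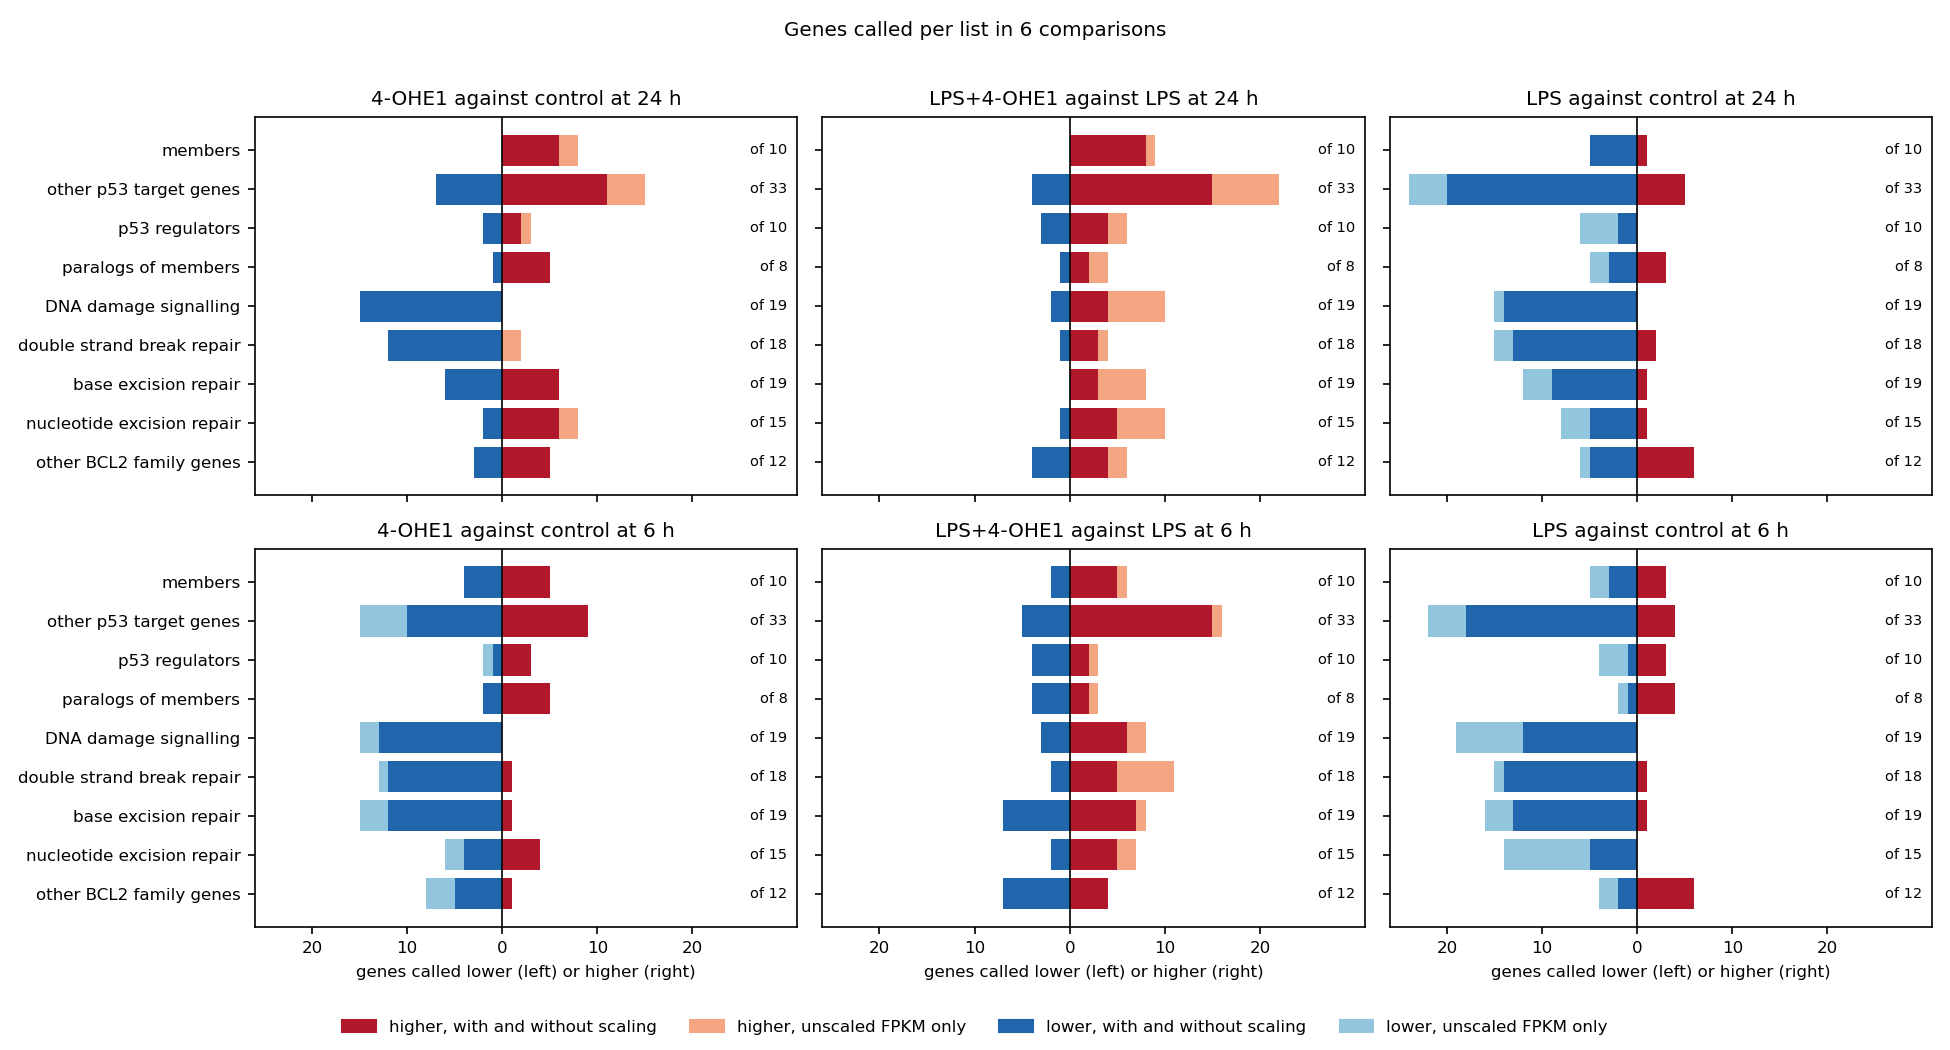
Genes called lower (left of 0) or higher (right of 0) per list in 6 comparisons, 24 h above and 6 h below, with dark bars for calls that also held after scaling and the number tested at the right. DNA damage signalling has 15 of 19 genes lower and 0 higher with 4-OHE1 at both times, while the 10 genes have 8 higher and 0 lower at 24 h.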

How the data were processed

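RNA of 24 libraries was sequenced by the submitters. The authors deposited an expression table for each time in FPKM, made with HOMER from exon reads of mm10 genes and 1 transcript a gene, per the file headers. The authors also deposited tables of log2 fold changes with adjusted p-values for each agent against control at each time. The authors used STAR, HOMER, DESeq2, edgeR and mm10, per the submitters' processing notes, and their versions are not given in the sources used here. Depths of the 6 LPS+4-OHE1 libraries were estimated from FPKM and transcript length, as the depth that turns these values into whole reads. From the FPKM, differences of log2(FPKM + 0.5) were fitted with limma 3.58.1 in R 4.3.3 over the 12 libraries of a time, keeping genes of at least 1 FPKM in 3 libraries, with Benjamini-Hochberg adjustment over all genes and calls under 0.05. Differences between times came from a fit over all 24 libraries of genes with the same transcript in both tables. FPKM was not scaled between libraries, which lets a shift of all genes enter each difference, so median-of-ratios scaling was run beside it. FPKM are not counts, so no count model is the main result. Whole reads (within 0.1 read) were recovered for 99.993% to 100% of the values above 0 that were precise enough to check. For the 6 LPS+4-OHE1 libraries this is no independent check, since their depth was chosen to give whole reads. Limma voom on the recovered reads was an alternative. The other alternatives were pseudocounts of 0.1 and 1, no filter, a filter of 5 FPKM, a replicate block, the authors' table and leaving out each library.

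Replicate numbers were taken from the labels. Same-numbered libraries mostly did not deviate together, apart from replicates 2 and 3 of LPS and 4-OHE1 at 24 h (correlations of 0.272 and 0.270). All 10 genes are described whatever their values. In each list up to 4 called genes of the largest difference could be named, and beside each of the 10 up to 3 genes of most like course, among genes whose highest group averaged 5 FPKM or more. The 10 genes and the lists were chosen with earlier results of these data known. Promoter windows are RefSeq's for GRCm38.p6. No column lacked a sample.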

Additional observations from a re-analysis of the deposited data

Results flagged for a closer look

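The results below were picked out because the effect of a treatment differed between 24 h and 6 h by a test of the difference itself in limma (adjusted p under 0.05 over all genes). Each value is the log2 difference at 24 h minus that at 6 h.

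The LPS effect was smaller at 24 h for Cdkn1a (-2.71), Mdm2 (-0.69) and Pmaip1 (-0.52). Cdkn1a, which had 850 FPKM with LPS against 139 FPKM in control at 6 h, had 180 FPKM with LPS against 193 FPKM in control at 24 h.

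The 4-OHE1 effect was greater at 24 h for Phlda3 (1.70), Trp53 (0.91), Zmat3 (0.84) and Ccng1 (0.81), all of which were below control at 6 h. It was smaller at 24 h for Gadd45a (-1.88), Mdm2 (-1.04), Pmaip1 (-0.97) and Cdkn1a (-0.64), all of which stayed above control at 24 h in the unscaled fit.

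The difference between LPS+4-OHE1 and LPS was greater at 24 h for Cdkn1a (1.82), Phlda3 (1.28), Ccng1 (0.62), Zmat3 (0.57) and Trp53 (0.30). It was smaller at 24 h for Gadd45a (-1.23) and Bbc3 (-0.93). For Cdkn1a the sign turned, with 348 FPKM with LPS+4-OHE1 against 180 FPKM with LPS at 24 h, and 466 FPKM with LPS+4-OHE1 against 850 FPKM with LPS at 6 h.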

How the results depend on the processing

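Over 13 comparisons and 10 genes, 50 of 55 calls higher and 31 of 37 calls lower held under every alternative run. The scaling mattered most. With median-of-ratios scaling, 5 genes were higher (3 unscaled) and 3 lower (5 unscaled) with LPS at 6 h, 4 higher (1) with LPS at 24 h, 5 lower (3) in the 6 h interaction, 3 lower (5) with LPS+4-OHE1 against 4-OHE1 at 24 h and 5 lower (3) in the change of the LPS effect, and 4321 genes in all (6701) were called with LPS+4-OHE1 against 4-OHE1 at 6 h. Voom on recovered reads gave 5 higher and 3 lower with LPS at 6 h, 5 lower in the 6 h interaction and 4 higher with LPS at 24 h, and the authors' deposited tables gave 5, 3 and 4 for the LPS comparisons. Directions turned under scaling, voom and, for agents against control, the authors' deposited tables. With LPS at 6 h these were Trp53 (0.027 scaled, 0.026 voom, 0.0090 authors' table) and Bax (0.60, 0.60 and 0.58). With LPS at 24 h they were Mdm2 (0.26, 0.23 and 0.27), Cdkn1a (0.27, 0.23 and 0.26) and Pmaip1 (0.099, 0.030 and 0.10). In other comparisons they were Bax (-0.097 scaled, -0.076 voom) in LPS+4-OHE1 against LPS at 6 h, Pmaip1 (0.12, 0.13) and Bax (0.17, 0.16) in LPS+4-OHE1 against 4-OHE1 at 6 h, Ccng1 (-0.19, -0.21) in the 6 h interaction, Ccng1 (-0.033, -0.012) in LPS+4-OHE1 against LPS at 24 h, Trp53 (0.14, 0.11) in LPS+4-OHE1 against 4-OHE1 at 24 h and Ccng1 (-0.11, -0.10) in the 24 h interaction. In the change of the LPS effect they were Trp53 (-0.28, -0.24), Ccng1 (-0.11, -0.061), Bbc3 (-0.11, -0.068), Bax (-0.14, -0.083) and Zmat3 (-0.20, -0.12, and -0.0092 with a pseudocount of 1). Of these only Trp53 with LPS at 6 h was a call in the unscaled fit. Leaving out each library turned the sign of differences that were not called, with ranges of -0.10 to 0.092 for Bax in the 6 h interaction, -0.051 to 0.055 for Mdm2 and -0.28 to 0.0062 for Pmaip1 in LPS+4-OHE1 against 4-OHE1 at 6 h, -0.10 to 0.38 for Phlda3 in LPS+4-OHE1 against LPS at 6 h, -0.063 to 0.12 for Ccng1 and -0.18 to 0.037 for Bax in the 24 h interaction, -0.061 to 0.13 for Bax in LPS+4-OHE1 against 4-OHE1 at 24 h, -0.26 to 0.055 for Pmaip1 in the change of LPS+4-OHE1 against LPS, and -0.0037 to 0.11 for Trp53 and -0.033 to 0.13 for Zmat3 in the change of the LPS effect. Same-numbered libraries mostly did not deviate together (correlations of -0.142 to 0.272, with 5.56% over 0.1). Those over 0.1 were between LPS and 4-OHE1 at 24 h, for replicates 2 and 3. With a replicate block the only call of the 10 genes to be lost was Zmat3 in LPS+4-OHE1 against LPS at 6 h (0.26, adjusted p = 0.056). The cause of these changes was not tested. Depth limits Phlda3 at 6 h most, with 48 to 76 reads over 3 libraries in each treated group.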
